A study of Rattus norvegicus with 33 samples.

Results

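The collagens were followed through 6 stages of the normal rat mammary gland. Members were the genes whose symbol on the array is Col, a number, a and a number, such as Col1a1, with 1 probe set kept for each. This gave 36 of the 18166 genes named by a single symbol. They were grouped as fibrillar collagens (types I, II, III, V, XI, XXIV and XXVII, 11 genes), basement membrane collagens (type IV, 5 genes) and the other collagens (20 genes).

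Total RNA was taken from both caudal glands of the 5th pair in female Sprague-Dawley rats and hybridised to 33 Affymetrix whole-transcript arrays. The rats had served as controls in work on chemicals in the environment, so every group had received the vehicle, olive oil, by gavage: 0.5 mL up to postnatal day 63 and 1 mL later. The groups were pre-pubertal rats at day 21 (10 arrays), peri-pubertal rats at day 42 (5), pubertal rats at day 63 (5), lactating rats at day 146, which was day 28 of lactation (3), and parous and nulliparous rats at day 181 (5 each). Rats of day 21 were still housed with their dams, since weaning was at day 28. Rats of a group were killed on 1 day and at any point of the estrous cycle, so stage and day of collection cannot be told apart. The series design gives these numbers as animals while the sample notes give 5 animals a stage, and each array was taken here as 1 animal.

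Collagens are proteins of the extracellular matrix built from 3 chains wound into a triple helix, and each gene encodes 1 kind of chain. Fibrillar collagens, of which types I and III are the most familiar, assemble into the tensile fibres of connective tissue and in the mammary gland lie around ducts and lobules and in the fat pad. Type IV collagen forms a network in the sheet-like basement membrane under epithelium and around vessels and fat cells, and the remaining types decorate fibrils, form beaded filaments, or span the membrane of a cell.

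A value is a log2 signal, so a difference of 1 is a doubling, and levels of different genes are not compared because probes differ in brightness. A gene was tested if it exceeded a floor of 7.645, the median of all single-symbol probe sets, on at least 3 arrays. It was called at an adjusted p under 0.05 in limma, a linear model fitted here to all genes with terms for stage and labelled batch. "Rose" and "fell" are used of called genes, and a difference is given with its standard error (SE). In whole glands, fewer cells of a type and less RNA per cell cannot be told apart.

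Of the 36 collagens, 26 passed the floor: 8 of 11 fibrillar, 5 of 5 basement membrane and 13 of 20 other genes. Just inside it stood Col2a1, the chain of cartilage collagen, above the floor on 6 arrays, and Col7a1, the chain of the anchoring fibrils below epithelium, on 9 arrays. Just outside stood Col13a1, a transmembrane collagen, on 2 arrays. Col8a1, Col9a1, Col10a1, Col11a1, Col11a2, Col19a1, Col20a1, Col24a1 and Col26a1 were not above it on any array, and these 10 untested genes read between 5.41 and 7.65. Of 6 cartilage marker genes, 5 were below the floor on every array, as were 4 of 4 skin epidermis markers.

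Over the 6 stages, 24 of the 26 tested collagens differed in limma's F test, where 65.9% of all 10986 genes did. The exceptions were Col27a1, a fibrillar chain (adjusted p 0.174), and Col8a2, a network-forming chain (adjusted p 0.109). Of the 10 untested collagens, 4 differed in the same test when all genes were fitted without the floor. The share of all genes was not counted in that fit.

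The promoters show how some of these genes are laid out. RefSeq (build GRCr8) gave a promoter window for 30 of the 36 members. In the 250 bases before the start, the GC box GGGCGG, on either strand, was found in 18 of 30 collagens (60%) and in 32.4% of 27457 genes. The CCAAT box (CCAAT or its reverse ATTGG) was found in 8 collagens (26.7%), against 34.3% of genes, and TATAAA on either strand in 4 (13.3%), against 13.1%. No motif searched contains another, and a match is a description of the sequence, not a shown site.

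The type IV chain genes sit head to head in pairs and are transcribed away from each other, so each pair shares the stretch between its starts. Shown first are the 76 bases between the starts of Col4a1 and Col4a2 (chr16:84885521-84885596, plus strand), because these genes encode the main chains of the network and are described together below. Next are the 250 bases nearest the start of Col4a3, of the 412 that separate it from Col4a4 (chr9:91323740-91323989, plus strand), a pair whose genes both fell at day 42. Last is the stretch of 86 bases upstream of Col1a2 that ends at its TATAAA (chr4:33518307-33518392, plus strand), in which the reverse CCAAT box starts 221 and the TATAAA 170 bases before the annotated start. Capitals mark the GC box in the first pair of sequences and the CCAAT and TATA boxes in Col1a2.
Col4a1-Col4a2: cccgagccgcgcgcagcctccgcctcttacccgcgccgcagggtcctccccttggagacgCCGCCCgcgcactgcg
Col4a3-Col4a4: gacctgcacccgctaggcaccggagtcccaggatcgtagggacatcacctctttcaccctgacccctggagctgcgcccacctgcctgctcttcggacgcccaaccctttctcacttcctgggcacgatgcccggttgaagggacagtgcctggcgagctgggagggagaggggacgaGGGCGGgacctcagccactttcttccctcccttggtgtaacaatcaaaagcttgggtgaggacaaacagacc
Col1a2: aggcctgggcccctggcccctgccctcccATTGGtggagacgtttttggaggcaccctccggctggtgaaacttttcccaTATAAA

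Batch needs to be known before the values of adult glands are read. Arrays of days 21, 42 and 63 were spread over batches 1 and 2, the lactating arrays were all in batch 2, and nulliparous and parous arrays were in batch 1 (3 each) and batch 3 (2 each). Batch 3 was extracted with a Zymo kit and the rest with a Promega kit, and the labels say that the Zymo kit was used for some adult glands that were more fatty. Batch, kit and that choice of glands cannot be told apart. At the same stage, 18 of 26 collagens were lower in batch 3 than in batch 1 and none was higher, with a median of -0.91, where 77.4% of all genes differed, 44.4% were lower and the median over all genes was -0.17. Col1a1 read 12.09, 12.70 and 12.32 on the nulliparous arrays of batch 1 and 10.00 and 10.30 on those of batch 3, a batch term of -2.20 ± 0.18 (SE). Col14a1, whose product binds to fibrils, had a batch term of -2.11 ± 0.20. Col4a3 and Col4a4, at 0.00 ± 0.11 and 0.04 ± 0.13, did not differ detectably between these batches. All nulliparous and parous arrays of both genes read under the floor, so a drop could hardly be seen there. Fibroblast marker means on the nulliparous arrays were 10.33 to 11.17 in batch 1 and 9.73 to 10.02 in batch 3. The drop was not particular to fibroblasts. Endothelium means were 9.51 to 9.94 and 8.67 to 8.92, and basal epithelium means 9.49 to 10.09 and 8.55 to 8.87. Smooth muscle and pericyte means were also lower on every nulliparous array of batch 3. Luminal epithelium, adipocyte, Schwann cell, T cell and B cell means overlapped between the batches. The part of these cells in the difference was not tested. Between batches 2 and 1, 5 collagens were higher and 3 lower, with a median of 0.01, where 56.6% of all genes differed and 35.2% were lower. For the 3 comparisons that could be made in more than 1 batch, the stage change was tested for a difference between batches (limma interaction term). It was called for 0 collagens, with 0 at an unadjusted p under 0.05, and for 0 of all 10986 genes. Since no gene was called, this does not show that the collagen changes were alike in the batches.

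**Figure D1:**
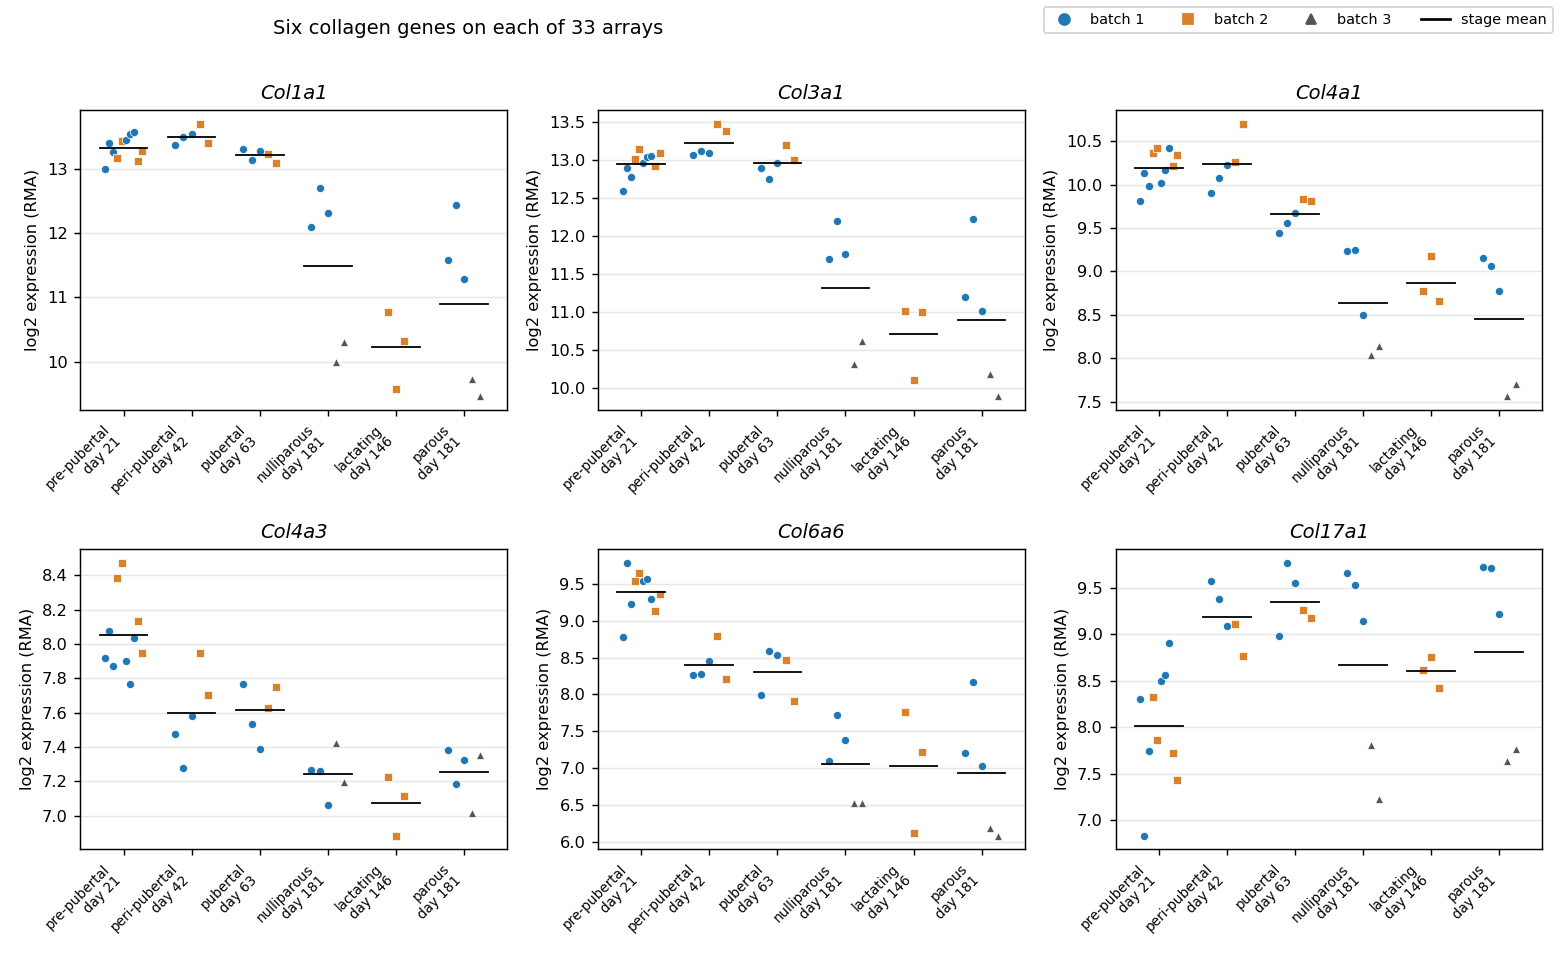
Log2 signal of 6 collagens on each array, by stage, with 1 point an array, colour and shape giving the batch, and a bar at the stage mean. The 3 lactating arrays of Col1a1 lie between 9.57 and 10.77 and the pubertal ones between 13.09 and 13.31, and in all panels but that of Col4a3 the adult arrays of batch 3 lie below those of batch 1 of the same stage. All nulliparous and parous arrays of Col4a3 read under the floor.

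At day 42 against day 21, the gland's start of puberty against the time before it, collagens moved in both directions. Of 26, 6 rose and 3 fell, where 32.3% of all genes were called, 17.1% up and 15.2% down. The median collagen difference was 0.24, against 0.00 over all genes. Those that rose were Col17a1, Col16a1, Col7a1, Col6a2, Col5a2 and Col5a1, and those that fell were Col6a6, Col4a3 and Col4a4.

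Col17a1, a transmembrane collagen that anchors basal epithelial cells to the basement membrane, had the largest rise. Its pre-pubertal values ran from 6.83 through a median of 8.08 to 8.91, and the peri-pubertal arrays read 9.57, 9.38, 9.09, 9.11 and 8.77. Only the lowest peri-pubertal array lay inside the pre-pubertal range. The difference was 1.17 ± 0.21 (SE), 2.24-fold higher (limma adjusted p 0.00014), and it was 1.21 within batch 1 and 1.11 within batch 2, called in each. Markers of basal epithelium moved as well: 3 of 5 tested rose and none fell, with a median of 1.39, and their mean was 7.62 to 9.0 on pre-pubertal and 8.91 to 9.80 on peri-pubertal arrays. The part of those cells in the rise was not tested.

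Col16a1, a fibril-associated collagen, read from 7.71 to 8.39 with a median of 8.03 at day 21 and 8.26, 8.57, 8.48, 8.71 and 8.56 at day 42. A single peri-pubertal array lay within the earlier range. It rose by 0.51 ± 0.11 (SE) (adjusted p 0.001). Col7a1 rose by 0.44 ± 0.11. All its pre-pubertal arrays but array 8, at 7.75, read under the floor, so this size is not exact. Col6a2, a chain of the beaded type VI filaments, rose by 0.42 ± 0.11. The type V chains Col5a2 and Col5a1, which take part in fibril assembly, rose by 0.42 ± 0.14 and 0.34 ± 0.13. The other type I, III and V chains had smaller or less certain differences, at 0.17 ± 0.15 for Col1a1, 0.31 ± 0.16 for Col1a2, 0.28 ± 0.14 for Col3a1 and 0.32 ± 0.15 for Col5a3, none called. Col1a1 read from 13.00 through 13.34 to 13.57 at day 21 and 13.36, 13.49, 13.53, 13.70 and 13.39 at day 42. Col1a2 read from 12.39 through 12.98 to 13.19 and then 13.07, 13.17, 13.15, 13.51 and 13.32. Col3a1 read from 12.59 through 12.98 to 13.15 and then 13.07, 13.12, 13.09, 13.48 and 13.37. In all 3 the groups overlapped. The calls of Col5a1 and Col5a2 were lost when single arrays were left out: Col5a2 without any of peri-pubertal arrays 2 to 5, and Col5a1 without any of those or of pre-pubertal arrays 1 to 4, 9 and 10 (highest adjusted p 0.079 and 0.11). A second probe set of Col5a1 differed by 0.32 ± 0.13 (SE) and was not called (limma adjusted p 0.0682).

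The clearest fall was that of Col6a6, another type VI chain. It read from 8.77 through a median of 9.45 to 9.79 at day 21 and 8.27, 8.28, 8.45, 8.79 and 8.21 at day 42, so a single peri-pubertal array reached the lower end of the earlier range. The difference was -0.98 ± 0.20 (SE), 1.98-fold lower (adjusted p 0.00053). The pair Col4a3 and Col4a4, minor chains of type IV collagen, fell too. Col4a3 read from 7.77 through 7.99 to 8.47 at day 21 and 7.48, 7.28, 7.58, 7.95 and 7.70 at day 42, a difference of -0.45 ± 0.09 (adjusted p 0.000442). Of those 5 arrays, 4 lay below the earlier range. Col4a4 differed by -0.39 ± 0.11 (adjusted p 0.00679). The main chains Col4a1 and Col4a2, which at day 21 read 9.81 to 10.43 and 9.78 to 10.44, differed by 0.04 ± 0.12 and 0.10 ± 0.11, and were not called.

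Chains of 1 family could be set against each other within an array. The difference between Col6a6 and Col6a2 was -1.82 ± 0.29 (SD, n = 10) at day 21 and -3.22 ± 0.25 (SD, n = 5) at day 42, so Col6a6 changed by 1.40 less than Col6a2 did, with no overlap between the groups. A two-sided exact permutation test gave 0.000333, the smallest p that 3003 arrangements allow, and 0.000999 after adjustment over the 6 pairs compared. Against Col6a3 the shift was -1.19, with the same exact p. With arrays swapped only within a batch, both gave an exact permutation p of 0.000794, the smallest of 1260 arrangements. Col4a3 shifted against Col4a1 by -0.50 (exact permutation p 0.00233, adjusted 0.00466, and 0.00317 with swaps within a batch). Col4a4 against Col4a2 also shifted by -0.50, but with more spread (exact permutation p 0.0766 over all arrays and 0.00238 with swaps within a batch, adjusted 0.00476). These pairs were chosen after their values had been seen, and the p-values do not allow for that choice.

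**Figure D2:**
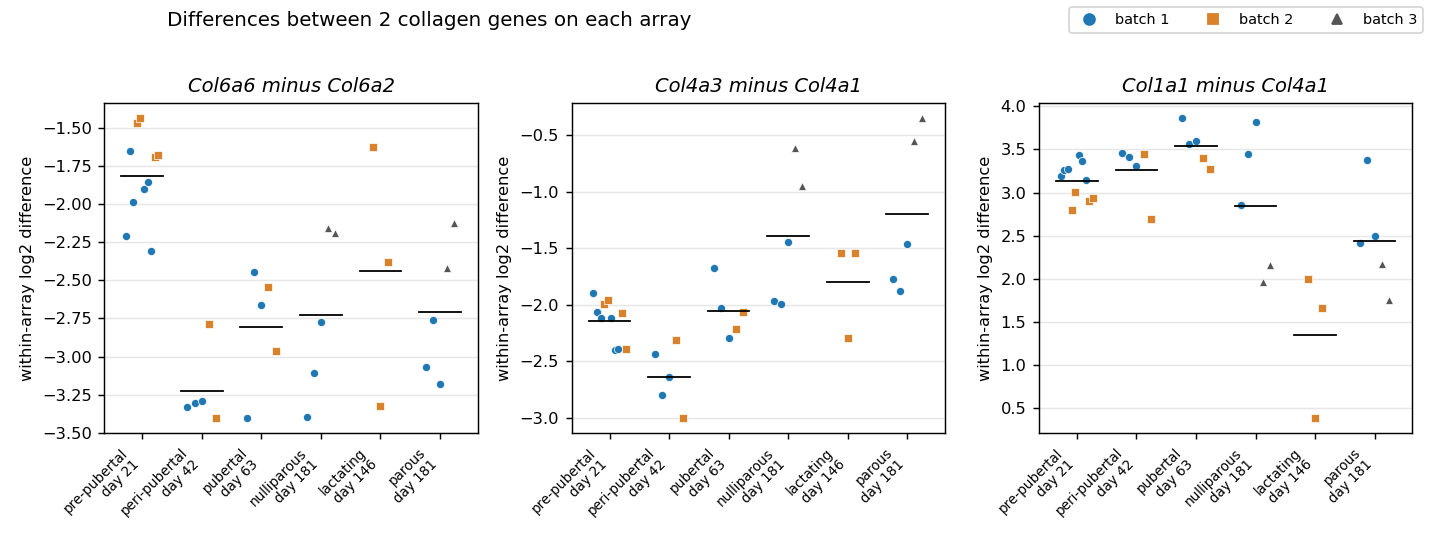
Difference in log2 signal between paired collagen chains on each array, by stage, with 1 point an array, colour and shape giving the batch, and a bar at the stage mean. The Col6a6 minus Col6a2 difference lies between -2.31 and -1.44 on the pre-pubertal arrays and between -3.40 and -2.79 on the peri-pubertal arrays.

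Most enzymes that make and cross-link collagen were higher at day 42 where they were called. Of 17 genes of collagen synthesis and folding, 10 rose and 1 fell, with a median of 0.29. Serpinh1, the collagen-specific chaperone HSP47, rose by 0.49 ± 0.13 (SE) and Ppib, a prolyl isomerase of procollagen folding, by 0.26 ± 0.06, while Plod2, a lysyl hydroxylase, fell by 0.78 ± 0.16. Of 12 genes of processing and cross-linking, 5 rose and 1 fell, among them Bmp1, the procollagen C-proteinase (0.66 ± 0.12), and the lysyl oxidase relatives Loxl1 (0.78 ± 0.17) and Loxl2 (0.56 ± 0.16). Fibril-associated proteins gave 6 rises among 13, among them Fbln1 (0.99 ± 0.16), Fn1 (0.78 ± 0.14) and Postn (0.55 ± 0.12). Genes of collagen breakdown and its inhibitors gave 9 rises and 3 falls among 14. The TIMP inhibitors of these proteinases are counted in it, and of them Timp1 (1.03 ± 0.18) and Timp2 (0.47 ± 0.09) rose and Timp4 fell by 1.42 ± 0.24. The macrophage elastase Mmp12 rose by 2.22 ± 0.19, the membrane collagenase Mmp14 by 1.14 ± 0.14 and cathepsin K, Ctsk, by 1.14 ± 0.17. The receptor Ddr1 rose by 0.93 ± 0.18 and the integrin chain Itga1 fell by 0.57 ± 0.12, and 1 of 6 receptors moved in each direction. Basement membrane partners gave 5 rises and 1 fall among 12, with Lamb3 at 0.89 ± 0.18, Lama3 at 0.73 ± 0.15 and Lamc3 at 0.43 ± 0.09.

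Cell markers moved strongly between these days. Of 10 luminal epithelium markers 10 rose (median 1.51), of 10 adipocyte markers 9 fell (median -0.85), of 7 T cell markers 7 fell (median -2.20), and of 9 fibroblast markers 3 rose and none fell (median 0.20). Endothelium markers fell in 5 of 6 cases (median -0.38), B cell markers in 5 of 5 (median -1.44) and smooth muscle and pericyte markers in 2 of 6 (median -0.28), with no rise, and of 4 Schwann cell markers 3 fell and 1 rose (median -0.81). Their part in the collagen differences was not tested. With the 10 arrays of all stages whose T cell mean was over 9 left out, of which 7 are pre-pubertal, 4 collagens were called, 1 up and 3 down. The share of all genes called was not counted in that fit, which has fewer arrays for every gene. Within batch 1, 1 rose and 2 fell, where 22.4% of all genes were called, and within batch 2, 2 rose and none fell, where 5.85% were. The differences had the same sign as the pooled ones for 24 and 25 of the 26 collagens.

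Between days 42 and 63, 5 collagens fell and none rose, where 1.22% of all genes were called, 0.719% up and 0.501% down. These were Col5a3, Col6a3, Col5a1, Col4a1 and Col6a2. Of the 26 differences 22 were negative, with a median of -0.27 against -0.01 over all genes. The values of 7 collagens at day 63 were all below those at day 42, which held for 1.24% of all genes.

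Col5a3, a minor type V chain, read 9.18, 10.12, 10.10, 9.76 and 10.13 at day 42 and 9.14, 9.06, 9.03, 9.09 and 8.84 at day 63. The groups did not overlap, although the lowest peri-pubertal array came close, and the difference was -0.83 ± 0.17 (SE), 1.77-fold lower (adjusted p 0.015). Col6a3, a type VI chain, read 10.85, 11.26, 11.46, 11.76 and 11.59 and then 10.91, 10.42, 10.71, 10.76 and 10.59. There the groups overlapped through 1 array on each side, and the difference was -0.71 ± 0.17 (adjusted p 0.0295). Col4a1 read 9.91, 10.07, 10.22, 10.26 and 10.70 and then 9.44, 9.56, 9.68, 9.84 and 9.82, without overlap, and fell by 0.57 ± 0.13. Col4a2, its head-to-head partner, read 10.08, 10.22, 10.32, 9.95 and 10.30 and then 9.78, 9.72, 9.93, 9.80 and 9.42. This was a difference of -0.44 ± 0.13, also without overlap but not called (adjusted p 0.0837).

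The calls at day 63 were readily lost when a single array was left out, though the differences stayed negative. They ran from -1.01 to -0.75 for Col5a3, -0.83 to -0.62 for Col6a3 and -0.73 to -0.59 for Col5a1. For Col4a1 they ran from -0.62 to -0.48 and for Col6a2 from -0.57 to -0.48. The share of all genes called was not counted in those fits, which have fewer arrays for every gene. Without peri-pubertal array 1, 8 collagens fell. Without peri-pubertal array 2, 1 fell, without array 3 none, without array 4, 2, and without array 5 none. Without pubertal array 2, 1 fell, without array 3 none, without array 4, 2, and without array 5, 1. No collagen was called within batch 1, where 0.0091% of all genes were, nor within batch 2, where 0% were, though 25 of 26 differences kept their sign in each. The type I and III chains had differences of -0.29 ± 0.18 for Col1a1, -0.36 ± 0.19 for Col1a2 and -0.27 ± 0.16 for Col3a1, none called. Of the pathway genes, Tll1, a relative of Bmp1, rose by 1.27 ± 0.30 and Mrc2, a receptor that takes up collagen, fell by 0.66 ± 0.15.

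**Figure D3:**
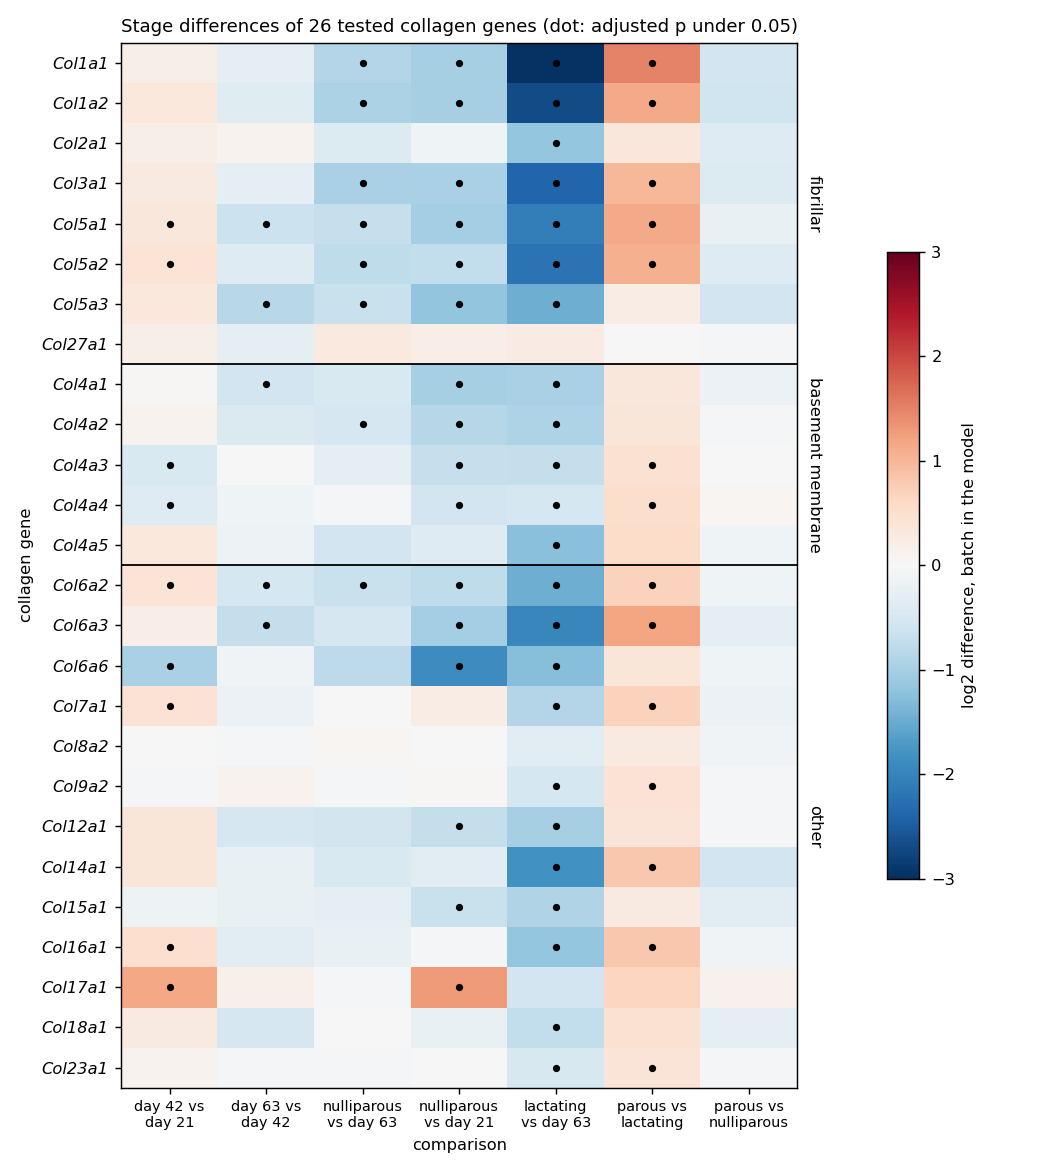
Log2 difference of each of the 26 tested collagens in each of the 7 comparisons, from the model with batch terms, with dots on called differences and blue for lower, red for higher. The column for lactating against pubertal glands holds 23 calls, all lower, and the column for parous against nulliparous glands holds none.

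Adult nulliparous glands at day 181 had lower values of most tested fibrillar collagens, and of some other collagens, than pubertal glands. Of 26 collagens 8 fell and none rose, where 4.27% of all genes were called, 1.88% up and 2.39% down. The median was -0.46 against -0.02 over all genes. The 8 were Col3a1, Col1a2, Col1a1, Col5a2, Col5a1 and Col5a3 among the fibrillar chains, and Col6a2 and Col4a2. All nulliparous values lay below all pubertal values for 12 collagens, where this held for 3.74% of all genes, without regard to batch. The fibrillar group had a median of -0.74, the basement membrane group one of -0.46 and the other collagens one of -0.23. Of the 8 fibrillar differences 7 were negative and 1 was positive, at 0.30 and not called. All 5 differences of the basement membrane group were negative.

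Col3a1, the chain of type III collagen, read 12.89, 12.74, 12.96, 13.19 and 13.00 at day 63. In nulliparous glands it read 11.70, 12.19 and 11.77 in batch 1 and 10.32 and 10.62 in batch 3. All nulliparous arrays lay below all pubertal ones, also within batch 1, and the difference was -0.98 ± 0.18 (SE), 1.97-fold lower (adjusted p 0.00235). Col1a2, the second chain of type I collagen, read 12.90, 12.76, 12.90, 13.06 and 12.82 and then 11.68, 12.40 and 11.61 in batch 1 and 10.05 and 10.54 in batch 3. It fell by 0.94 ± 0.21, and Col1a1, with no overlap either, by 0.87 ± 0.20 (adjusted p 0.00949). Among type IV chains, Col4a2 fell by 0.51 ± 0.14. Col4a1 read 9.23, 9.25 and 8.50 in batch 1 and 8.04 and 8.14 in batch 3, and its difference of -0.46 ± 0.15 was not called.

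Within batch 1 alone, 2 collagens fell, Col3a1 by 0.98 and Col5a2 by 0.96, where 2.28% of all genes were called. Without nulliparous array 3 the count was 4 and without pubertal array 3 it was 5. Calls that some single arrays decided were those of Col4a2 (pubertal arrays 1 to 4 and nulliparous array 3), Col5a3 (pubertal arrays 1 to 4 and nulliparous arrays 1, 3 and 4), Col5a2 (pubertal array 3 and nulliparous array 3) and Col6a2 (nulliparous array 3). The second Col5a1 probe set differed by -0.54 ± 0.17 (SE) and was not called (limma adjusted p 0.0718). Without the arrays with high T cell means, 1 collagen fell, and the share of all genes was not counted there. Of 12 genes of procollagen processing and cross-linking 4 fell and none rose. Lox, lysyl oxidase, fell by 2.04 ± 0.23 (SE), its relative Loxl2 by 0.77 ± 0.21, Tgm2, a transglutaminase, by 0.62 ± 0.13, and Tll1, a procollagen proteinase, by 1.42 ± 0.33. Of 13 fibril-associated genes Sparc (-0.31 ± 0.08) and Bgn (-0.39 ± 0.11) fell, and of 12 basement membrane partners Lamc1 (-0.50 ± 0.12) and Lama4 (-0.47 ± 0.13). Synthesis and folding gave 1 call among 17, a rise of Colgalt2, a collagen galactosyltransferase, by 0.57 ± 0.16. Fibroblast markers gave 1 fall among 9, with a median of -0.24.

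Across the whole span from day 21 to the adult nulliparous gland, 15 collagens fell and 1 rose, where 29.2% of all genes were called, 14.4% down and 14.8% up. For 13 collagens the groups did not overlap, with the adult values lower, which held for 3.7% of all genes. The median was -0.68 against -0.04 over all genes. Leaving out any single array gave the same count of 16, and batch 1 alone also gave 1 rise and 15 falls, where 24.6% of all genes were called. This comparison shares arrays with the others, so its values stand beside them and do not add to them.

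Col6a6 had the largest fall. From the pre-pubertal range given above it read 7.10, 7.72 and 7.39 in nulliparous glands of batch 1 and 6.53 and 6.53 in batch 3. No nulliparous array reached the lowest pre-pubertal one, and the difference was -1.88 ± 0.24 (SE), 3.68-fold lower (adjusted p 7.24e-07). All nulliparous arrays but that at 7.72 read under the floor, so this size is not exact. At day 63 Col6a6 read 7.99, 8.59, 8.54, 8.47 and 7.91, between the values of the younger and the adult glands. Col5a3, from 9.0 through 9.61 to 10.02 at day 21, read 8.44, 8.64 and 7.82 in batch 1 and 8.03 and 8.36 in batch 3, a difference of -1.18 ± 0.17 without overlap. Of the 8 tested fibrillar collagens, Col1a1, Col1a2, Col3a1, Col5a1 and Col5a3 had falls between 0.97 and 1.18, and Col5a2 fell by 0.74.

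Of 5 basement membrane chains 4 fell. Col4a1 fell by 0.98 ± 0.13 (SE), Col4a2 by 0.85 ± 0.13, Col4a3 by 0.70 ± 0.11 and Col4a4 by 0.57 ± 0.13, all without overlap. Every nulliparous array of Col4a3 and Col4a4 read under the floor, so the size of their falls is not exact. Col4a5 differed by -0.40 ± 0.18 and was not called. Type VI chains Col6a3 and Col6a2 fell by 1.02 ± 0.17 and 0.76 ± 0.13. Col12a1, which associates with fibrils, fell by 0.71 ± 0.18 and Col15a1, which links fibrils to basement membranes, by 0.66 ± 0.15.

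The single rise was that of Col17a1, which read 9.65, 9.52 and 9.14 on nulliparous arrays of batch 1 and 7.81 and 7.23 on those of batch 3. The batch 3 arrays lay within the pre-pubertal range, so the groups overlapped. With the batch terms the difference was 1.29 ± 0.25 (SE), and within batch 1 it was 1.30, called. Without a batch term it was not called. Of 5 basal epithelium markers 3 rose in this comparison, with a median of 1.50, and their part was not tested.

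Among the pathway genes, Lox fell by 2.22 ± 0.21 (SE), Pcolce, an enhancer of procollagen cleavage, by 1.28 ± 0.17, and 5 of 12 processing genes in all fell, with none rising. Synthesis and folding gave 3 rises and 4 falls among 17, and breakdown with its inhibitors 3 and 4 among 14, with Mmp12 higher by 3.53 ± 0.22, Timp1 and Timp2 among the rises and Timp4 among the falls. Fibroblast markers gave 2 rises and 2 falls among 9. Other cell markers moved too: 5 of 6 of endothelium (median -0.51), 4 of 6 of smooth muscle and pericytes (median -0.47) and 7 of 10 of adipocytes (median -0.87) fell, with no rise. Of 10 luminal epithelium markers 10 rose (median 1.54), and of 4 Schwann cell markers 3 fell and 1 rose (median -0.86). Their part in the collagen differences was not tested.

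Glands in late lactation had lower collagen values than pubertal glands. Of 26 collagens 23 fell and none rose, where 40.7% of all genes were called, 23.8% up and 16.9% down. The median was -1.07 against 0.06 over all genes. The fibrillar group had a median of -2.15, the basement membrane group one of -0.93 and the other collagens one of -0.89. All lactating arrays lay below all pubertal arrays for 23 collagens, which held for 17.4% of all genes. For 9 of the 23 falls, those of Col2a1, Col5a1, Col4a3, Col4a4, Col4a5, Col7a1, Col9a2, Col16a1 and Col23a1, every lactating array read under the floor, so these genes were tested through other groups and their size in lactation is not exact.

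Col1a1, the main chain of type I collagen, had the largest fall. It read 13.31, 13.13, 13.28, 13.24 and 13.09 at day 63 and 10.77, 9.57 and 10.32 in lactation. The gap between the closest arrays was wider than the spread within either group, and the difference was -2.95 ± 0.22 (SE), 7.75-fold lower (adjusted p 3.4e-11). Col1a2 read 10.77, 9.75 and 10.33 in lactation, a difference of -2.68 ± 0.23, 6.39-fold lower. Col3a1 read 11.017, 10.105 and 10.999, a difference of -2.38 ± 0.20, 5.22-fold lower. The second lactating array was the lowest for each of these 3 genes.

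The type V chains Col5a2 and Col5a1 fell by 2.22 ± 0.20 (SE) and 2.08 ± 0.18, and Col5a3 by 1.46 ± 0.21. A second probe set of Col5a1 also read lower in lactation but by only 0.60 ± 0.19 (adjusted p 0.0128), so the probe sets disagree on size. Col2a1, above the floor only on 6 pre-pubertal, peri-pubertal or pubertal arrays, was among the called genes, but its lactating values of 6.30, 6.27 and 6.15 lay well under the floor. Col27a1 was the fibrillar chain not called, with a difference of 0.26 ± 0.15.

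The main basement membrane chains Col4a1 and Col4a2 had smaller falls than those of Col1a1 and Col1a2 above. Col4a1 read 8.77, 9.18 and 8.66 in lactation and fell by 0.97 ± 0.16 (SE). Col4a2 read 8.63, 8.81 and 8.58 and fell by 0.93 ± 0.16. For these 2 genes too the lactating arrays stayed below all pubertal arrays. Within arrays, Col1a1 minus Col4a1 went from 3.54 ± 0.22 (SD, n = 5) to 1.35 ± 0.85 (SD, n = 3), a shift of -2.19, and Col1a2 minus Col4a2 shifted by -1.55. Each gave a two-sided exact permutation p of 0.0179, the smallest that 56 arrangements allow, and 0.0214 after adjustment over the 6 pairs. That test swaps arrays between batches. These pairs too were chosen after their values had been seen, and its p does not allow for that choice among the collagens. Within batch 2, which holds 3 lactating and 2 pubertal arrays, the shifts were -1.99 and -1.72, and the exact permutation p was 0.1 for each, the smallest that its 10 arrangements allow, so neither pair was called there. Col4a5 fell by 1.26 ± 0.22, Col4a3 by 0.71 ± 0.13 and Col4a4 by 0.53 ± 0.16. The call of Col4a4 was lost without lactating array 2 (adjusted p 0.0976).

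**Figure D4:**
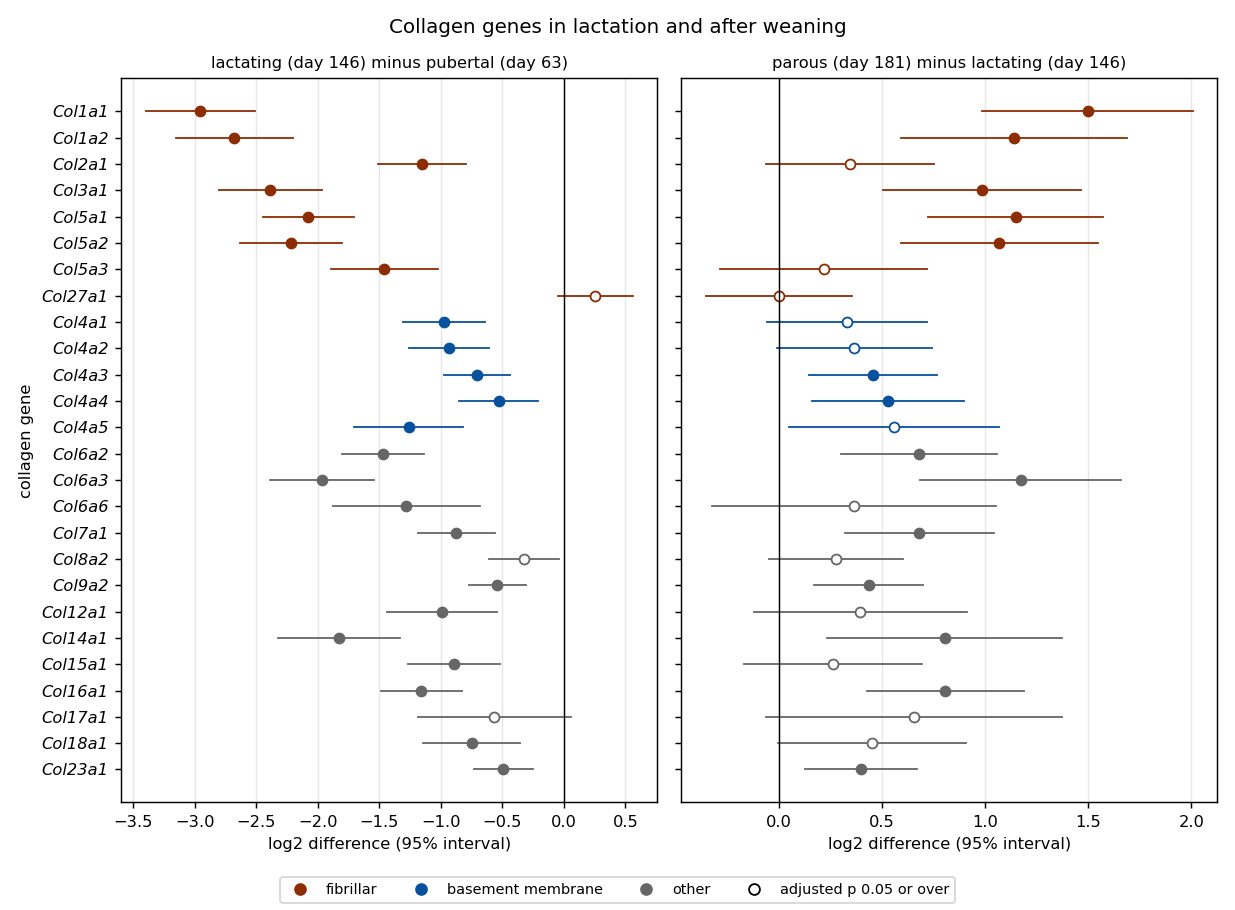
Log2 difference of each of the 26 tested collagens, lactating minus pubertal (left) and parous minus lactating (right), with the 95% confidence interval of the model, colours for the groups of collagens and open points for those not called. On the left Col1a1 stands lowest at -2.95 and the type IV chains lie between -1.26 and -0.53, and on the right Col1a1 stands highest at 1.50.

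Among the other collagens, Col6a3 read 9.01, 8.68 and 8.68 and fell by 1.96 ± 0.21 (SE), 3.90-fold, and Col14a1 fell by 1.83 ± 0.24. Col6a2 fell by 1.47 ± 0.16, Col6a6 by 1.28 ± 0.29 and Col16a1 by 1.16 ± 0.16. Col12a1, Col15a1, Col7a1, Col18a1, Col9a2 and Col23a1 fell by 0.49 to 0.99. Of these, Col18a1 is the precursor of endostatin and sits in basement membranes. Col17a1, the collagen of basal epithelial cells, differed by -0.56 ± 0.31 and was not called, although its lactating arrays, at 8.62, 8.76 and 8.42, were below all pubertal ones. Col8a2 differed by -0.32 ± 0.14, also not called.

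Of 17 genes of synthesis and folding 9 fell and 1 rose (median -0.46), with the chaperones Fkbp10 at -1.91 ± 0.22 (SE) and Serpinh1 at -1.57 ± 0.19 and the hydroxylase family member P3h3 at -0.98 ± 0.15. Of 12 genes of processing and cross-linking 11 fell (median -1.42), with Loxl2 at -2.20 ± 0.23, Pcolce at -1.81 ± 0.21 and the procollagen N-proteinase Adamts2 at -1.77 ± 0.20. Of 13 fibril-associated genes 12 fell (median -1.49), with Ogn at -2.04 ± 0.16, Bgn at -1.68 ± 0.13 and Sparc at -1.49 ± 0.09. Genes of breakdown and its inhibitors gave 7 falls and 3 rises among 14. Ctsk fell by 2.42 ± 0.25 and Mrc2 by 2.0 ± 0.18, while Mmp12 rose by 2.57 ± 0.27. Of the inhibitors counted there, Timp2 (-0.65) and Timp3 (-0.48) fell and Timp1 rose by 1.0 ± 0.26. Receptors gave 3 falls and 1 rise among 6, and the falls were Itga11 (-2.11 ± 0.30), Ddr2 (-1.27 ± 0.15) and Itga2 (-0.97 ± 0.20). Basement membrane partners gave 8 falls and 1 rise among 12, with the nidogens Nid2 at -2.18 ± 0.20 and Nid1 at -1.54 ± 0.16 and Lamc1 at -1.05 ± 0.14.

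Fibroblast markers fell in the same comparison, 9 of 9, with a median of -1.12, and their mean was 9.34 to 9.72 on lactating and 10.78 to 11.16 on pubertal arrays. Luminal epithelium markers gave 7 rises and no fall among 10, with means of 10.44 to 11.24 and 9.63 to 10.22. Adipocyte markers gave 9 falls among 10. The part of these cell types in the collagen falls was not tested. The lactating arrays are all of batch 2, and within that batch, against 2 pubertal arrays, 20 collagens fell and all 26 differences kept their sign, where 21.7% of all genes were called. Col1a1 differed there by -2.94. Leaving out each array in turn gave 23 or 24 falls.

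After lactation, parous glands at day 181 had higher collagens than lactating glands in the model with batch terms. Of 26 collagens 14 rose and none fell, where 32.9% of all genes were called, 12.1% up and 20.7% down. The median was 0.49 against -0.06 over all genes. No batch holds both groups, so these differences rest on the batch terms estimated from other stages. Without a batch term 6 collagens were called, and the share of all genes was not counted there.

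Col1a1 had the largest rise. It read 10.77, 9.57 and 10.32 in lactation and 11.57, 12.44 and 11.28 on parous arrays of batch 1, and 9.73 and 9.46 on those of batch 3. Parous arrays of batch 1 thus lay above all lactating arrays and those of batch 3 did not. The difference was 1.50 ± 0.25 (SE), 2.82-fold (adjusted p 4.71e-05). Col6a3 read 9.75, 10.37 and 9.71 in batch 1 and 7.88 and 7.78 in batch 3, against 9.01, 8.68 and 8.68 in lactation, and showed the same split with a difference of 1.17 ± 0.24. Neither was called without a batch term.

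Further fibrillar rises were 1.15 ± 0.21 (SE) for Col5a1, 1.14 ± 0.27 for Col1a2, 1.07 ± 0.23 for Col5a2 and 0.99 ± 0.23 for Col3a1. The second Col5a1 probe set differed by -0.21 ± 0.22 (adjusted p 0.491), and with the mean of both probe sets Col5a1 was not called. All parous arrays lay above all lactating arrays for 7 collagens, where this held for 13.3% of genes. These included Col5a1, Col5a2, Col16a1 and Col7a1. Of the 14 rises, 7 were of genes with every lactating array under the floor, the genes so named above other than Col2a1 and Col4a5. Col16a1 rose by 0.81 ± 0.18 and Col7a1 by 0.68 ± 0.18. Of their parous arrays only array 2 read above the floor, at 8.22 and 7.66, so these sizes are not exact. Col4a1 and Col4a2 differed by 0.33 ± 0.19 and 0.37 ± 0.18 and were not called. Col4a3 and Col4a4 rose by 0.46 ± 0.15 and 0.53 ± 0.18. Every parous array of these genes also read under the floor, at 7.02 to 7.38 and 7.25 to 7.45, so these sizes are not exact. For Col4a4 the term of batch 2, which holds all lactating arrays, was 0.47 ± 0.09. Some calls were lost when a single array was left out: Col14a1 without lactating array 1 or 2 or parous array 2, Col23a1 without lactating array 1 or parous array 2, and Col9a2 without lactating array 1. Col4a3 lost its call without lactating array 2 or parous array 1, and Col4a4 without lactating array 2 or parous array 1 or 3. The value of Col14a1, 0.80 ± 0.28, was -0.012 without a batch term.

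Synthesis and folding gave 7 rises and 1 fall among 17, with Serpinh1 at 1.29 ± 0.22 (SE). Processing gave 7 rises and 1 fall among 12, with the peroxidasin gene Pxdn, whose enzyme cross-links type IV collagen, at 1.26 ± 0.25. Fibril-associated proteins gave 11 rises among 13, with Ogn at 1.30 and Bgn at 1.20. Breakdown and its inhibitors gave 6 rises and 2 falls among 14, receptors 2 rises and 1 fall among 6, and basement membrane partners 5 rises and 1 fall among 12. Fibroblast markers gave 6 rises among 9 with a median of 0.87, and adipocyte markers 7 among 10 with a median of 1.11. Luminal markers gave 8 falls among 10. The part of these cells was not tested.

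Parous and nulliparous glands of the same age did not differ in any collagen by the test used. Limma called 0 of 26, where 0.0182% of all genes, 2 in number, were called (0.0091% in each direction), and 8 collagens had an unadjusted p under 0.05, where 668 of 10986 genes did. A fit with array weights called 3, all lower, and the share of all genes it called was not counted. Within batch 1 and within batch 3, where 0% of all genes were called, no collagen was called either. Of the 26 differences 23 were negative, with a median of -0.15 against 0.00 over all genes, and in the fibrillar group 8 of 8 were negative, with a median of -0.41. Col1a2 read 11.68, 12.40 and 11.61 in nulliparous and 10.90, 12.03 and 11.01 in parous glands of batch 1. In batch 3 it read 10.05 and 10.54, and then 9.88 and 9.48. The parous values overlapped the nulliparous ones in batch 1 but not in batch 3, and the difference was -0.59 with a 95% confidence interval from -0.98 to -0.21. For Col1a1 it was -0.58, from -0.94 to -0.23, with -0.60 within batch 1 and -0.56 within batch 3. Col4a1 read 9.15, 9.06 and 8.78 in parous glands of batch 1 and 7.56 and 7.70 in batch 3, a difference of -0.18 ± 0.13 (SE). Col4a2 read 9.51, 9.25 and 9.22 and then 7.28 and 7.27, a difference of -0.05 ± 0.13. Col3a1 read 11.20, 12.22 and 11.01 and then 10.18 and 9.89 in parous glands, a difference of -0.42 ± 0.16. An adjusted p that misses the threshold does not show that the glands were alike.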

How the data were processed

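Total RNA (250 ng a sample) was labelled and hybridised to 33 arrays. The authors deposited log2 values of 36685 probe sets, which per the submitters' processing notes come from RMA in Affymetrix Expression Console. The sources used here give no version and no genome build. Deposited values ran from 2.405 to 14.228, with no detection calls. The number of arrays limits precision.

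The platform annotation named the probe sets (18511 with 1 symbol, 575 with several, 17599 with none listed). For the 291 symbols with more than 1 probe set, the one with the highest mean was kept. Genes above 7.645 on at least 3 arrays were tested (10986). Stage, batch and kit came from the labels. Limma 3.58.1 in R 4.3.3 fitted stage and batch over all arrays (25 residual degrees of freedom, intensity trend), with two-sided moderated tests and Benjamini-Hochberg adjustment over all genes. Comparisons share arrays. P-values measure the spread between arrays. The highest correlation between arrays was 0.990 and none were identical. On simulated data, the share of changes of 1 on the log2 scale recovered was 83.6% for parous against lactating and 98.5% for day 42 against day 21, with 10986 genes each. For changes of 0.5 it was 34.3% and 64.2%, so many differences of that size would be missed. The simulation changed 200 genes at a time with independent normal noise, so these shares need not hold for the real arrays.

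Collagens, gene lists and tests were chosen with earlier results of these data known. The lists of enzymes, partners and cell markers were written from general knowledge. Values by array are given for Col1a1, Col1a2, Col3a1, Col4a1 and Col4a2 and, in each comparison, for up to 2 called collagens with the largest rise and up to 2 with the largest fall. Of each list of partner genes, up to 3 called genes with the smallest adjusted p were eligible for naming. The TIMP genes, and Loxl2 in nulliparous glands, were named after their values were seen. Chain pairs were tested with exact permutation tests, and with arrays swapped only within a batch, chosen after seeing the data. Promoters came from RefSeq (GRCr8), the first listed window of each gene. Alternatives varied the batch term, filter, scaling, probe sets, weights and arrays. Figures were drawn with matplotlib 3.10.9 in Python 3.11.15.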

Additional observations from a re-analysis of the deposited data

Results flagged for a closer look

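In 130 groups of 4 to 10 arrays (26 collagens in 5 stages), 5 had an array far from the others by Dixon's criterion. Each group held arrays of more than 1 batch and was not split by batch, so the rate that chance gives is not known. Peri-pubertal array 1 read 9.56 for Col5a1, below the next lowest at 9.92. For Col6a2, peri-pubertal array 3 was the highest at 11.74, with the next at 11.61. Col15a1 read 9.43 on pubertal array 5, with the next lowest at 9.77. Parous array 2 read 8.22 for Col16a1, above the next at 7.64. Col23a1 read 8.13 on pre-pubertal array 5, above the next at 7.92.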

How the results depend on the processing

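Counts of called collagens are given here with the value in the report first. Shares of all genes were counted only for the main fit and for single batches. A change in a count may thus hold for other genes too. For day 42 against day 21 (9) the count was 5 without a batch term, 3 in batch 1 only, 2 in batch 2 only, 5 with a filter at the 75th percentile, which leaves fewer collagens to test, and 4 without the arrays of high T cell means, chosen after seeing the data. For day 63 against day 42 (5) it was 0 without a batch term, 0 in batch 1 only, 0 in batch 2 only, 10 with array weights, 3 with only the groups compared and 0 at an adjusted p under 0.01. For nulliparous against pubertal glands (8) it was 2 in batch 1 only, 15 with array weights, 1 without the arrays of high T cell means and 4 at the stricter p. For lactating against pubertal glands (23) it was 15 with the 75th percentile filter, where 16 collagens were tested. For parous against lactating glands (14) it was 6 without a batch term, 8 with the 75th percentile filter and 9 at the stricter p. For parous against nulliparous glands (0) it was 3 with array weights. Other causes were not tested. Leaving out each array in turn gave 7 to 13, 0 to 8, 4 to 8, 23 to 24, 12 to 15 and 0 to 0 calls for these comparisons in that order, 16 to 16 for nulliparous against pre-pubertal glands, where the report has 16, and 22 to 25 for the F test, where it has 24. Col14a1 in parous against lactating glands went from 0.80 to -0.012 without a batch term, the only reversal among the named results and settings run. Of 81 results for single genes or pairs, 17 lost their call with at least 1 array left out and 64 did not. Those 64 include the pair Col4a4 and Col4a2, which was not called over all arrays (exact permutation p 0.0766). Batch as a random block, renewed quantile normalization, median centring, the mean of probe sets and no intensity trend kept each count within 1.5 times. A fit of only the groups compared could not be made for parous against lactating glands, which share no batch. Batch 2 only and batch 3 only could not be fitted for comparisons with no arrays there. No paired analysis was possible because the array numbers were given in accession order and pair no animals. Without depths or detection calls, values under the floor have no stated limit.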
